A study of Mus musculus with 16 samples.

Results

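The 44 genes described here encode the clathrin coat, the AP-2 adaptor, pit scaffolds, accessory adaptors, AP-2 kinases, BAR and F-BAR proteins, synaptojanins, EHD ATPases and endosomal RAB proteins. They were picked by symbol for their known roles, leaving out dynamins, Bin1 and caveola genes. Earlier results of these data were known when the genes were picked. They are 44 of the 30037 genes in the count table. All 44 were among the 15649 genes that passed the filter on low counts, although 3 of them (Pacsin1, Sh3gl2 and Sh3gl3) averaged under 1 CPM (counts scaled to the TMM library size).

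In clathrin-mediated endocytosis, early scaffold proteins and AP-2 gather cargo at the plasma membrane, clathrin assembles around the bud, and BAR domain proteins bend the neck. Dynamin then severs the neck, synaptojanin and auxilin-type kinases help to remove the coat, and RAB5 directs the vesicle to the early endosome. RAB4, RAB11 and EHD proteins return cargo to the surface, while RAB7 takes it to late endosomes. In skeletal muscle, clathrin also forms flat plaques at the fibre surface, and vesicle recycling carries the glucose transporter GLUT4 and the transferrin receptor.

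Polyadenylated RNA was sequenced from the tibialis anterior, a mostly fast-twitch muscle of the lower leg, in male C57BL/6N mice aged 7 weeks. The groups were Dnm2SL/+ mice given ASO1 (n = 4), Dnm2SL/+ mice given ASO Control (n = 6), WT mice given ASO1 (n = 2) and WT mice given ASO Control (n = 4). Dnm2SL/+ mice are heterozygous for an altered allele of Dnm2, the gene of dynamin 2, and stand for autosomal dominant centronuclear myopathy, a muscle disease. ASO1 is an antisense oligonucleotide that by the series title lowers Dnm2, and ASO Control is its control oligonucleotide, so that no group was left without an oligonucleotide. The labels number replicates within groups of mice without giving the dose, litter or day, so that p-values measure the spread between these libraries, which may in part be technical. The comparisons ask how the genes differ between genotypes and whether ASO1 moves them.

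Libraries held 30148163 to 33667052 counts. Dnm2, the targeted gene, was at 28.2, 35.2, 26.6 and 32.2 CPM in Dnm2SL/+ ASO1 libraries, against a lowest, median and highest of 35.2, 60.5 and 65.1 CPM in Dnm2SL/+ ASO Control libraries. It fell with ASO1 in Dnm2SL/+ (log2FC = -0.85, edgeR adjusted P value = 0.0016, exact permutation p = 0.019), and was at 23.0 and 24.99 CPM in WT ASO1 libraries, against 52.8, 55.7, 45.4 and 57.2 CPM in WT ASO Control libraries (edgeR log2FC = -1.14, two-sided exact permutation p = 0.133, and with only 2 WT ASO1 libraries no lower p can be reached). The summed level of 10 fast fibre markers was 177900 to 192400 CPM in Dnm2SL/+ ASO1, 146500 to 168700 CPM in Dnm2SL/+ ASO Control and 195200 to 213700 CPM in WT ASO Control libraries, and that of 13 macrophage markers was 56.9 to 121 CPM in Dnm2SL/+ ASO1, 77.2 to 162 CPM in Dnm2SL/+ ASO Control and 43.7 to 102 CPM in WT ASO Control libraries. In whole muscle, fewer cells of a type and less RNA per cell cannot be told apart.

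The stretches upstream of the RefSeq start (GRCm38.p6) are shown for 5 of the 7 genes that passed the test in both main comparisons described below (Rab4a had no entry in the table, and Pacsin3 had no stretch of this length free of exons). How many of all genes passed in both was not counted, so the 7 are only a description. Calls on Rab5a, Pacsin1 and Eps15l1 were lost on leaving out single libraries, as given below. Each is 120 bases long, 5′ to 3′ in the direction of the gene, and is the stretch nearest to the start that holds no annotated exon. Capitals mark the GC box GGGCGG and the CCAAT box CCAAT on either strand. For Pacsin1 the only start listed lies inside the annotated gene (chr17:27655509-27711482), so its window is not that of the gene's 5′ end.
Itsn1 promoter, chr16:91729161-91729280 (+ strand): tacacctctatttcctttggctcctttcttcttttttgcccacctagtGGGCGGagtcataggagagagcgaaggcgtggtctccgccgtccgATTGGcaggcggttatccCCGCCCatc
Eps15l1 promoter, chr8:72421475-72421594 (- strand): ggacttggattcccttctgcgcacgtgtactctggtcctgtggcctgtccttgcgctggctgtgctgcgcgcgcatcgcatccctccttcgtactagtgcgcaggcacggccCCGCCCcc
Ehd4 promoter, chr2:120154607-120154726 (- strand): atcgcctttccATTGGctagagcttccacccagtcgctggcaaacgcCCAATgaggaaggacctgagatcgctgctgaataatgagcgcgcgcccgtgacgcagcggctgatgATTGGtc
Pacsin1 promoter, chr17:27685061-27685180 (+ strand): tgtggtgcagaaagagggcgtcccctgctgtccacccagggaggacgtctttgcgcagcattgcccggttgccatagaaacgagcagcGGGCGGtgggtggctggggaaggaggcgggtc
Rab5a promoter, chr17:53479114-53479233 (+ strand): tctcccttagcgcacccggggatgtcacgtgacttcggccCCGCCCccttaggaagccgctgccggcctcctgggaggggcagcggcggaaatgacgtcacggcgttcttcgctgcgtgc

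Over the 250 bases before the start, the GC box was found 5 times for Itsn1, 3 times for Eps15l1, 2 times for Pacsin1, and 1 time each for Ehd4 and Rab5a. Of all 32851 promoters in the RefSeq table, 32.7% held a GC box in the same window. The CCAAT box was found 3 times for Ehd4, 2 times for Itsn1 and 1 time for Rab5a, and in 33.8% of all promoters, whereas Eps15l1 and Pacsin1 held no match. The core TGACG of the cyclic AMP response element, searched on both strands, had 4 matches for Rab5a and 2 for Ehd4. A palindromic site TGACGTCA, as in the Rab5a stretch shown, counts as 2 matches, so there are fewer sites than matches for Rab5a. Of all promoters, 17.8% held at least 1 match, a share of promoters and not a number of matches. These matches describe the letters of the window only.

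Pacsin3, Epn1 and Rab7 were the most abundant of the 44 per length of exon. Pacsin3, a muscle syndapin that binds dynamin and bends membranes, averaged 72.7 ± 2.8 CPM per kb of exon in Dnm2SL/+ ASO Control libraries and 60.0 ± 2.16 CPM per kb in WT ASO Control libraries (SD, n = 6 and 4). Epn1, the cargo adaptor epsin 1, averaged 55.4 ± 3.03 CPM per kb in Dnm2SL/+ ASO Control and 60.3 ± 1.63 CPM per kb in WT ASO Control libraries. Rab7, the late endosome GTPase, averaged 52.2 ± 3.32 CPM per kb in Dnm2SL/+ ASO Control and 73.6 ± 10.7 CPM per kb in WT ASO Control libraries. Per length, the 3 clathrin genes lay close together, at 18.6 CPM per kb for Cltc, 20.3 for Clta and 20.2 for Cltb in Dnm2SL/+ ASO Control libraries, and at 19.0, 17.3 and 19.5 CPM per kb in the same order in WT ASO Control libraries. Among the AP-2 subunits, by contrast, Ap2a1 and Ap2s1 were at 21.5 and 20.2 CPM per kb in Dnm2SL/+ ASO Control libraries and Ap2m1 was at 3.89 CPM per kb.

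**Figure D1:**
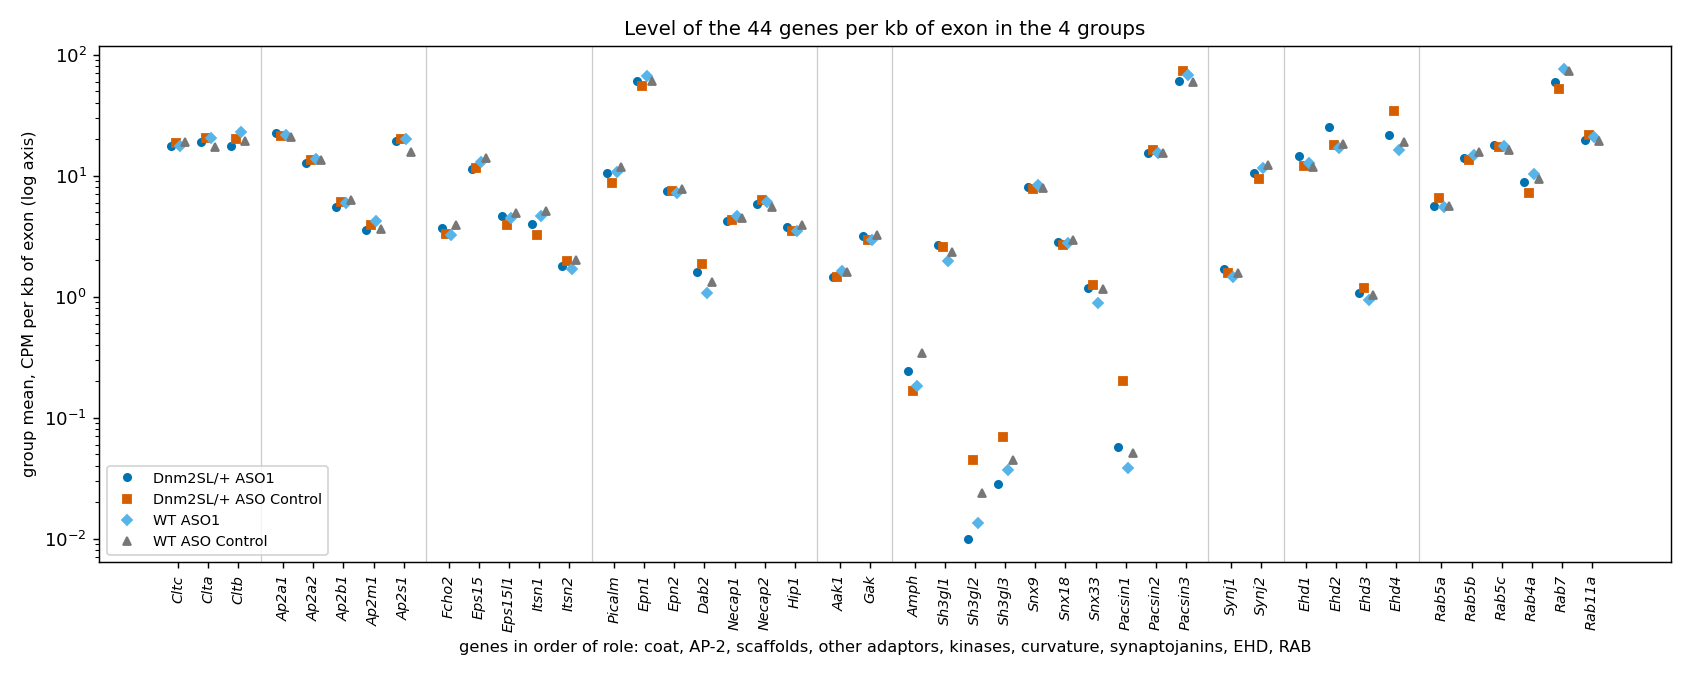
Group mean level of the 44 genes in CPM per kb of exon on a log axis, with genes ordered by role and symbols for the 4 groups. Pacsin3, Epn1 and Rab7 lie highest, while Pacsin1, Sh3gl2, Sh3gl3 and Amph lie lowest.

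In the genotype comparison under ASO Control, the pit scaffold gene Itsn1 was lower in Dnm2SL/+ muscle, Ehd4 and Pacsin3 were higher, and the clathrin heavy chain and the large AP-2 subunits did not pass the test. Of the 44 genes, 9 were higher (20.5%) and 8 were lower (18.2%) in Dnm2SL/+ at an edgeR adjusted P value under 0.05, beside 15.7% higher and 16.4% lower of all 15649 genes tested, so that both shares lay near those of the whole table. The median log2FC of the 44 was -0.02, and that of all genes was 0.00. Changes were mostly small, with 13 of the 17 called genes under 0.5 in absolute log2FC, and 10 of the 17 had no overlap between groups. How many of all genes lacked overlap was not counted, so lack of overlap is given here and below as a description. The strand setting of the counting was not stated, so reads from genes whose exons overlap, named below, cannot be told apart. With ASO1 in Dnm2SL/+ muscle, 5 genes were higher and 5 were lower (11.4% each), beside 6.96% higher and 8.06% lower of all genes tested, with 7 of the 10 free of overlap. Both comparisons use the same 6 Dnm2SL/+ ASO Control libraries, so their values are not independent.

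The split between higher and lower calls depended on the scaling. When counts were scaled by library size alone, 22 of the 44 were higher and 2 were lower in Dnm2SL/+ under ASO Control, as were 5662 and 928 of all genes, and 2 were higher and 12 lower with ASO1, as were 474 and 2877 of all genes. That scaling moved the median of all genes by 0.23 in the genotype comparison and by -0.13 with ASO1, so every change below is relative to the bulk of genes. Under it the genotype calls on Eps15, Eps15l1, Fcho2, Picalm, Rab4a and Rab5b were lost, as were the ASO1 calls on Eps15l1, Ehd1 and Rab4a.

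**Figure D2:**
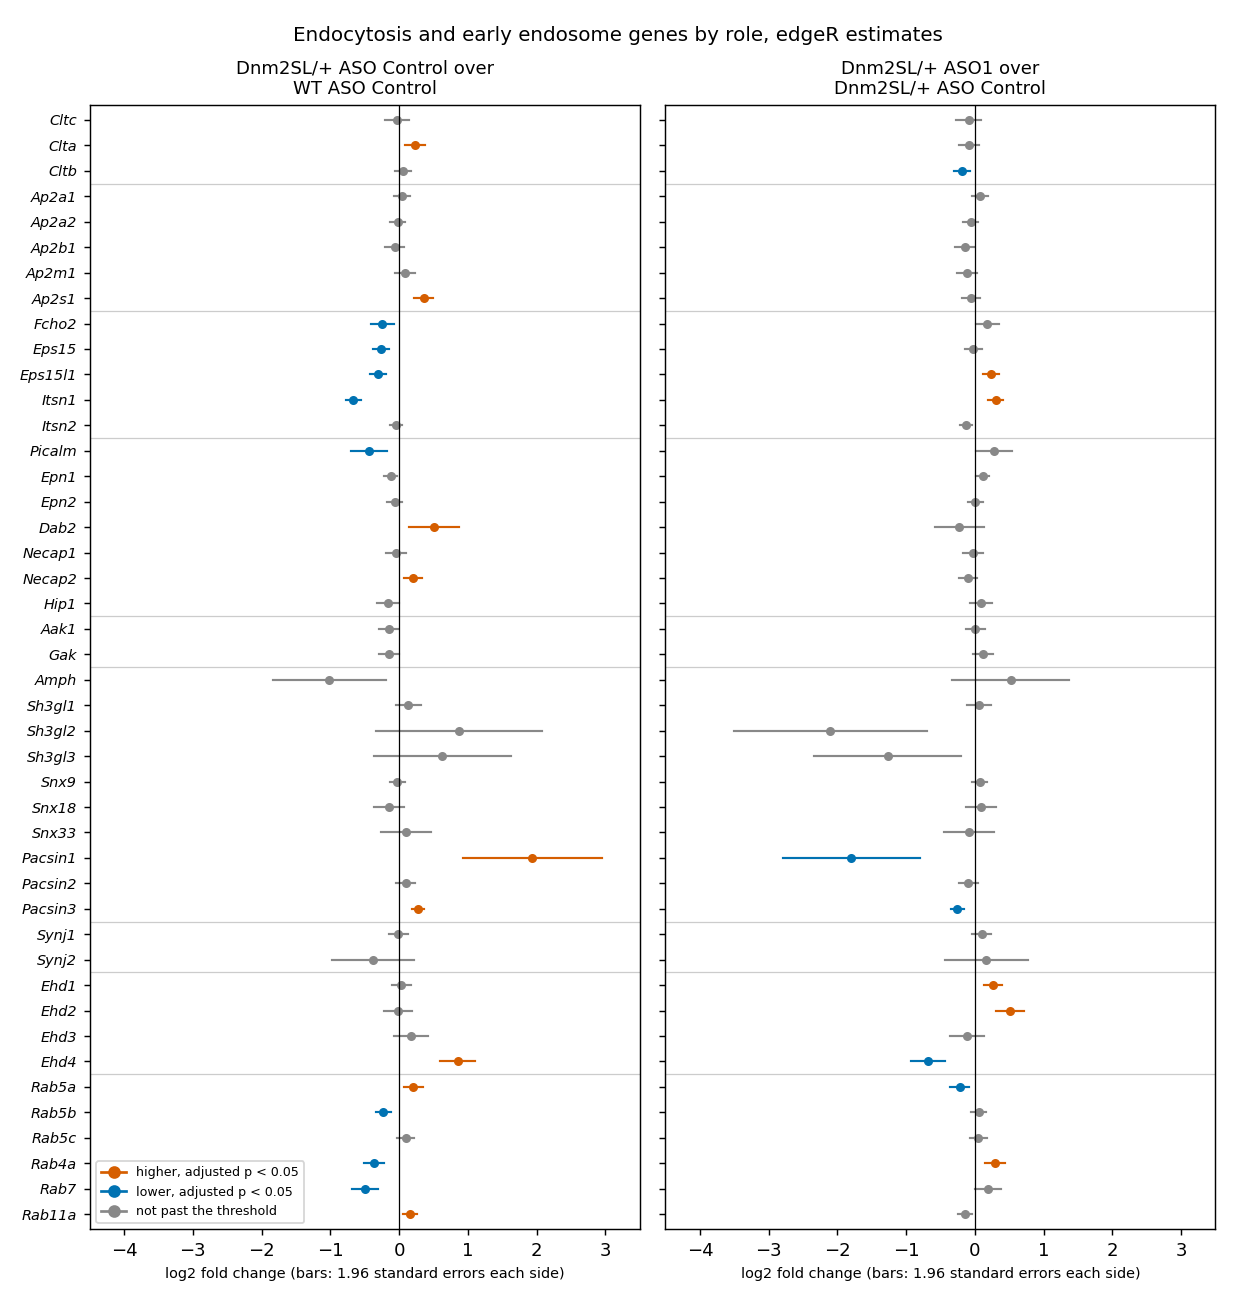
Log2 fold change of each of the 44 genes (points) with 1.96 standard errors each side (bars), for Dnm2SL/+ ASO Control over WT ASO Control on the left and Dnm2SL/+ ASO1 over Dnm2SL/+ ASO Control on the right. Of the 44, 9 were higher and 8 lower on the left, and 5 higher and 5 lower on the right.

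The clathrin coat differed little. Cltc, the heavy chain that forms the legs of the coat, had a lowest, median and highest level of 145, 159 and 168 CPM in Dnm2SL/+ ASO Control, against 149, 139, 197 and 160 CPM in WT ASO Control libraries (log2FC = -0.03, interval of 1.96 SE each side -0.21 to 0.15, edgeR adjusted P value = 0.84). Clta, a regulatory light chain, had 33.9, 35.8 and 40.5 CPM in Dnm2SL/+ ASO Control, against 34.3, 29.1, 29.0 and 32.2 CPM in WT ASO Control libraries, and was higher in Dnm2SL/+ (log2FC = 0.23, edgeR adjusted P value = 0.026). The groups overlapped, and the Clta call was lost on leaving out replicate 2 (adjusted p = 0.083) or replicate 3 (adjusted p = 0.086) of WT ASO Control.

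Cltb, the other light chain, had 88.1, 80.2, 89.0 and 87.3 CPM in Dnm2SL/+ ASO1, against a lowest, median and highest of 92.2, 98.2 and 107 CPM in Dnm2SL/+ ASO Control libraries. It fell with ASO1 without overlap (log2FC = -0.19, edgeR adjusted P value = 0.038). The call was lost without Dnm2SL/+ ASO Control replicate 2, 3, 5 or 6 or any of the 4 Dnm2SL/+ ASO1 libraries, with an adjusted p of up to 0.117 for Cltb.

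In AP-2, the adaptor that links cargo and membrane to clathrin, only the small subunit passed in the genotype comparison. Ap2s1 had 27.4, 29.3 and 32.3 CPM (lowest, median and highest) in Dnm2SL/+ ASO Control, against 24.7, 21.3, 21.4 and 25.2 CPM in WT ASO Control libraries. All Dnm2SL/+ libraries lay above all WT ASO Control libraries (log2FC = 0.36, SE 0.07, edgeR adjusted P value = 0.0011), and the call held with each library left out. The other subunits had log2FC of 0.04 for Ap2a1, -0.02 for Ap2a2, -0.06 for Ap2b1 and 0.09 for Ap2m1, and no AP-2 subunit passed with ASO1 in Dnm2SL/+. Ap2a1, the most abundant subunit per length, had 97.6, 100.1, 95.9 and 94.8 CPM in Dnm2SL/+ ASO1, against 85.2, 92.5 and 101 CPM in Dnm2SL/+ ASO Control libraries, and 86.8, 84.0, 92.9 and 94.4 CPM in WT ASO Control libraries. These ranges overlapped, and exons of Fuz lie across Ap2a1 on the other strand.

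Of the 5 initiation and scaffold genes, 4 were lower in Dnm2SL/+ under ASO Control and none was higher, while 2 were higher with ASO1, beside 16.4% lower with genotype and 6.96% higher with ASO1 of all genes. Under library size alone these counts were 1 higher and 1 lower in each comparison, with Itsn1 still lower for genotype. Their median log2FC was -0.27 in the genotype comparison, and -0.04 under library size alone, where all genes had a median of 0.23. Itsn1 (chr16:91729281-91920597, + strand, GRCm38), which encodes the multi-domain scaffold intersectin 1 that binds dynamin, EPS15 and epsins, had 72.5, 74.5 and 79.2 CPM in Dnm2SL/+ ASO Control, against 105, 122, 125 and 124 CPM in WT ASO Control libraries. It had the smallest p of the 44 in this comparison (log2FC = -0.66, SE 0.06, edgeR adjusted P value = 1.6e-06). Levels in Dnm2SL/+ ASO1 libraries were 87.7, 91.2, 99.7 and 92.1 CPM, above every Dnm2SL/+ ASO Control library and below every WT ASO Control library. The rise with ASO1 passed the test (log2FC = 0.30, edgeR adjusted P value = 0.0026), and both Itsn1 calls held with each library left out and under library size alone. Its paralog Itsn2 did not pass in either comparison (log2FC = -0.05 and -0.13).

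Eps15, an EH domain scaffold at the rim of the pit, had 77.4, 79.7 and 84.6 CPM in Dnm2SL/+ ASO Control, against 92.6, 91.2, 102 and 100.3 CPM in WT ASO Control libraries. The groups did not overlap (log2FC = -0.26, edgeR adjusted P value = 0.0031), and Eps15 stayed at 79.0, 72.7, 87.1 and 78.3 CPM in Dnm2SL/+ ASO1 libraries (log2FC = -0.02, interval of 1.96 SE each side -0.14 to 0.10). Eps15l1, its paralog, had 24.8, 26.4 and 29.0 CPM in Dnm2SL/+ ASO Control, against 34.2, 30.3, 34.2 and 32.8 CPM in WT ASO Control libraries. It was lower in Dnm2SL/+ without overlap (log2FC = -0.31, edgeR adjusted P value = 9.9e-04) and was higher with ASO1, at 34.5, 29.3, 30.1 and 30.7 CPM (log2FC = 0.23, edgeR adjusted P value = 0.016), a call lost without Dnm2SL/+ ASO1 replicate 1 (adjusted p = 0.065). Exons of Gm45779 lie across Eps15l1 on the same strand. Fcho2, an F-BAR protein at nascent pits, was lower in Dnm2SL/+ (log2FC = -0.24, edgeR adjusted P value = 0.042), with 36.0 to 46.0 CPM in Dnm2SL/+ ASO Control and 44.7 to 56.1 CPM in WT ASO Control libraries. The groups overlapped for Fcho2, and its call was lost in 10 of 16 leave-outs, namely without replicate 1, 3 or 4 of WT ASO Control, 1, 2, 3, 5 or 6 of Dnm2SL/+ ASO Control, or 3 or 4 of Dnm2SL/+ ASO1, with an adjusted p of up to 0.175.

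Among the 7 accessory adaptors, 2 were higher and 1 was lower in Dnm2SL/+, and none passed with ASO1. The shares of all genes tested were 15.7% higher and 16.4% lower with genotype, and 6.96% higher and 8.06% lower with ASO1. Dab2, which takes integrins and lipoprotein receptors into pits and is also expressed by macrophages, had 11.5, 14.0 and 15.6 CPM in Dnm2SL/+ ASO Control, against 14.6, 7.50, 10.5 and 6.09 CPM in WT ASO Control libraries (log2FC = 0.51, edgeR adjusted P value = 0.045). WT ASO Control replicate 1 lay among the Dnm2SL/+ libraries for Dab2, and it also had the highest macrophage marker sum of its group, at 102 CPM beside 43.7 to 51.0 CPM in the other 3. This library was likewise highest of its group for fibroblast markers, at 2661 CPM beside 957 to 1313 CPM. For adipocyte markers it had 73.7 CPM beside 5.83 to 34.3 CPM. All 13 macrophage markers had a positive log2FC for genotype and 4 passed the test, beside 15.7% higher of all genes. All 10 fibroblast markers were positive too and 5 passed, while no adipocyte marker passed. The part of these cell types in the result was not tested. The Dab2 call was lost in 12 of 16 leave-outs, all but those of WT ASO Control replicate 1, Dnm2SL/+ ASO Control replicates 1 and 5 and Dnm2SL/+ ASO1 replicate 3, with an adjusted p of up to 0.148.

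Necap2, an AP-2 partner that also acts in recycling, was higher by a log2FC of 0.20 (18.1 to 21.7 CPM in Dnm2SL/+ ASO Control, against 15.1 to 18.2 CPM in WT ASO Control libraries, edgeR adjusted P value = 0.035). The ranges of Necap2 overlapped, and the call was lost on leaving out replicate 2 (adjusted p = 0.083) or 3 (adjusted p = 0.13) of WT ASO Control or Dnm2SL/+ ASO Control replicate 1 (adjusted p = 0.051). Picalm, which sorts small SNARE proteins into pits and senses curvature, had 126, 136 and 147 CPM in Dnm2SL/+ ASO Control, against 150, 138, 246 and 210 CPM in WT ASO Control libraries (log2FC = -0.44, edgeR adjusted P value = 0.019). Picalm was uneven within the WT ASO Control group, and the call was lost without replicate 3 (adjusted p = 0.11) or replicate 4 (adjusted p = 0.072) of that group. Epn1 had 141, 158 and 164 CPM in Dnm2SL/+ ASO Control, against 163, 171, 172.5 and 172 CPM in WT ASO Control libraries, a difference that missed the threshold (log2FC = -0.12, edgeR adjusted P value = 0.066). The remaining adaptors Epn2, Necap1 and Hip1 had log2FC of -0.06, -0.04 and -0.16 and did not pass.

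Neither AP-2 kinase passed in either comparison. Aak1, which phosphorylates the medium subunit of AP-2, had 29.0, 31.4 and 32.4 CPM in Dnm2SL/+ ASO Control, against 34.8, 32.2, 37.0 and 33.5 CPM in WT ASO Control libraries (log2FC = -0.15, interval of 1.96 SE each side -0.28 to -0.01, edgeR adjusted P value = 0.13). Gak, the auxilin-type kinase that brings in HSC70 to take off the coat, had a log2FC of -0.14 (edgeR adjusted P value = 0.14).

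Of the 10 BAR and F-BAR genes, the syndapins Pacsin1 and Pacsin3 were higher in Dnm2SL/+ and lower with ASO1, and no other gene of the group passed. Beside them, 15.7% of all genes were higher with genotype and 8.06% lower with ASO1. Pacsin3 (chr2:91255954-91264679, + strand, GRCm38) had 303, 312 and 335 CPM in Dnm2SL/+ ASO Control, against 267, 247, 259 and 266 CPM in WT ASO Control libraries (log2FC = 0.28, SE 0.05, edgeR adjusted P value = 3.4e-04). In Dnm2SL/+ ASO1 libraries Pacsin3 had 274, 258, 264.5 and 257 CPM, below every Dnm2SL/+ ASO Control library (log2FC = -0.26, edgeR adjusted P value = 0.0021). Neither pair of groups overlapped, and both Pacsin3 calls held with each library left out and under library size alone. Exons of Gm17281 lie across Pacsin3 on the other strand.

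Pacsin1, the syndapin best known from neurons, was near the limit of detection, with 3 to 64 counts per library. Its level was 0.723, 1.41 and 1.86 CPM in Dnm2SL/+ ASO Control, against 0.576, 0.311, 0.310 and 0.147 CPM in WT ASO Control libraries, without overlap (log2FC = 1.94, SE 0.52, edgeR adjusted P value = 0.0092). In Dnm2SL/+ ASO1 libraries Pacsin1 had 0.197, 0.099, 0.981 and 0.222 CPM (log2FC = -1.80, edgeR adjusted P value = 0.026), and replicate 3 lay among the Dnm2SL/+ ASO Control libraries. The ASO1 call on Pacsin1 was lost without Dnm2SL/+ ASO Control replicate 4 (adjusted p = 0.051) or Dnm2SL/+ ASO1 replicate 1 (adjusted p = 0.083), 2 (adjusted p = 0.071) or 4 (adjusted p = 0.079). The summed level of 8 neuron markers was 2.66 to 3.33 CPM in Dnm2SL/+ ASO1, 2.58 to 3.70 CPM in Dnm2SL/+ ASO Control and 2.61 to 3.36 CPM in WT ASO Control libraries. That sum was mostly Stmn2, at 43 to 99 counts per library, while the others had at most 13 counts, and Snap25 and Syt1 at most 1. Only 2 of the 8 were tested, and neither passed. Their log2FC ran from -0.18 to 1.05 for genotype and from -1.27 to 0.13 with ASO1. The part of nerve in the Pacsin1 result was not tested. Pacsin2, the widely expressed syndapin, had a log2FC of 0.10 (edgeR adjusted P value = 0.34).

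The other curvature genes did not pass. Sh3gl1, the widely expressed endophilin A2, and the sorting nexins Snx9, Snx18 and Snx33, which bind dynamin and actin regulators, had log2FC of 0.13, -0.02, -0.15 and 0.10 in the genotype comparison. The brain endophilins Sh3gl2 and Sh3gl3 stayed at or under 0.48 CPM in every library. Amph, the amphiphysin paralog of Bin1, averaged 0.76 ± 0.23 CPM in Dnm2SL/+ ASO Control and 1.54 ± 0.56 CPM in WT ASO Control libraries (SD, n = 6 and 4, log2FC = -1.01, edgeR adjusted P value = 0.078).

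The synaptojanins, phosphatases that strip phosphoinositides from coated vesicles, did not pass either. Synj2 was the most uneven of the 41 genes with at least 1 CPM on average other than Amph, with a pooled SD of 0.56 in log2 CPM within groups, where the median of the 41 was 0.106. It had 80.7, 44.9, 127 and 101 CPM in Dnm2SL/+ ASO1, a lowest, median and highest of 51.7, 71.5 and 115 CPM in Dnm2SL/+ ASO Control, and 116, 56.2, 117 and 121 CPM in WT ASO Control libraries. The Synj2 groups overlapped fully (log2FC = -0.38 and 0.17), and exons of Serac1 lie across Synj2 on the other strand. Synj1 was at 11.7 to 14.0 CPM in Dnm2SL/+ ASO Control and at 11.8 to 13.7 CPM in WT ASO Control libraries.

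The EHD ATPases, dynamin-like proteins that tubulate endosomal and surface membranes, moved apart from each other. Ehd4 (chr2:120089175-120154606, - strand, GRCm38) had 106, 144 and 154 CPM in Dnm2SL/+ ASO Control, against 91.0, 57.3, 79.9 and 78.7 CPM in WT ASO Control libraries (log2FC = 0.85, SE 0.13, edgeR adjusted P value = 1.3e-04). It fell with ASO1, to 91.6, 86.6, 77.0 and 90.6 CPM in Dnm2SL/+ ASO1 libraries (log2FC = -0.68, SE 0.13, edgeR adjusted P value = 0.0024). Every Dnm2SL/+ ASO Control library lay above every other library for Ehd4, and both calls held with each library left out. The lowest of them, replicate 6, was also the lowest of its group for Dnm2, at 35.2 CPM. It had the highest summed levels of its group for slow fibre markers (454 CPM) and adipocyte markers (98.3 CPM). Dnm2SL/+ ASO1 replicate 2 also had 35.2 CPM of Dnm2, with Ehd4 at 86.6 CPM. A link between Ehd4 and Dnm2 was not tested.

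Ehd2 (chr7:15946958-15967567, - strand, GRCm38), which sits at the necks of caveolae and is abundant in endothelium and muscle, had 125, 119, 117 and 160.5 CPM in Dnm2SL/+ ASO1, against a lowest, median and highest of 79.2, 91.5 and 99.3 CPM in Dnm2SL/+ ASO Control libraries. It rose with ASO1 without overlap (log2FC = 0.51, SE 0.10, edgeR adjusted P value = 0.0041), and the call held with each library left out and under library size alone. For genotype, no difference in Ehd2 was detectable from the WT ASO Control libraries, which had 106, 81.0, 104 and 79.5 CPM (log2FC = -0.02, interval of 1.96 SE each side -0.22 to 0.19). Ehd1, the recycling endosome EHD, had 50.9, 49.2, 54.7 and 58.8 CPM in Dnm2SL/+ ASO1, against 39.6, 43.7 and 50.8 CPM in Dnm2SL/+ ASO Control libraries (log2FC = 0.26, edgeR adjusted P value = 0.018). Its groups overlapped by the highest control library, and the Ehd1 call was lost without Dnm2SL/+ ASO1 replicate 4 (adjusted p = 0.060). Ehd3 was at 7.08 CPM on average in Dnm2SL/+ ASO1 and at 7.68 CPM in Dnm2SL/+ ASO Control libraries, and did not pass.

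The endothelial marker sum was higher with ASO1 in Dnm2SL/+, as were Ehd2 and Ehd1. All 9 markers had a positive log2FC with ASO1 in Dnm2SL/+ and 5 passed the test, beside 6.96% higher of all genes. Their summed level was 685 to 958 CPM in Dnm2SL/+ ASO1, against 520 to 653.5 CPM in Dnm2SL/+ ASO Control libraries, and 661 to 790 CPM in WT ASO Control libraries. The sum was thus lower in Dnm2SL/+ under ASO Control without overlap, whereas Ehd2 and Ehd1 did not pass for genotype. In that comparison 1 of the 9 markers passed as lower, beside 16.4% of all genes, and their median log2FC was -0.14. Within the Dnm2SL/+ ASO1 group, the sum was highest in replicate 2, at 958 CPM, where Ehd2 had 119 CPM and Ehd1 was lowest, at 49.2 CPM. It was 931 CPM in replicate 4, where Ehd2 was highest. The lowest sum, 685 CPM in replicate 3, lay above every Dnm2SL/+ ASO Control library. Their part in the result was not tested.

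**Figure D3:**
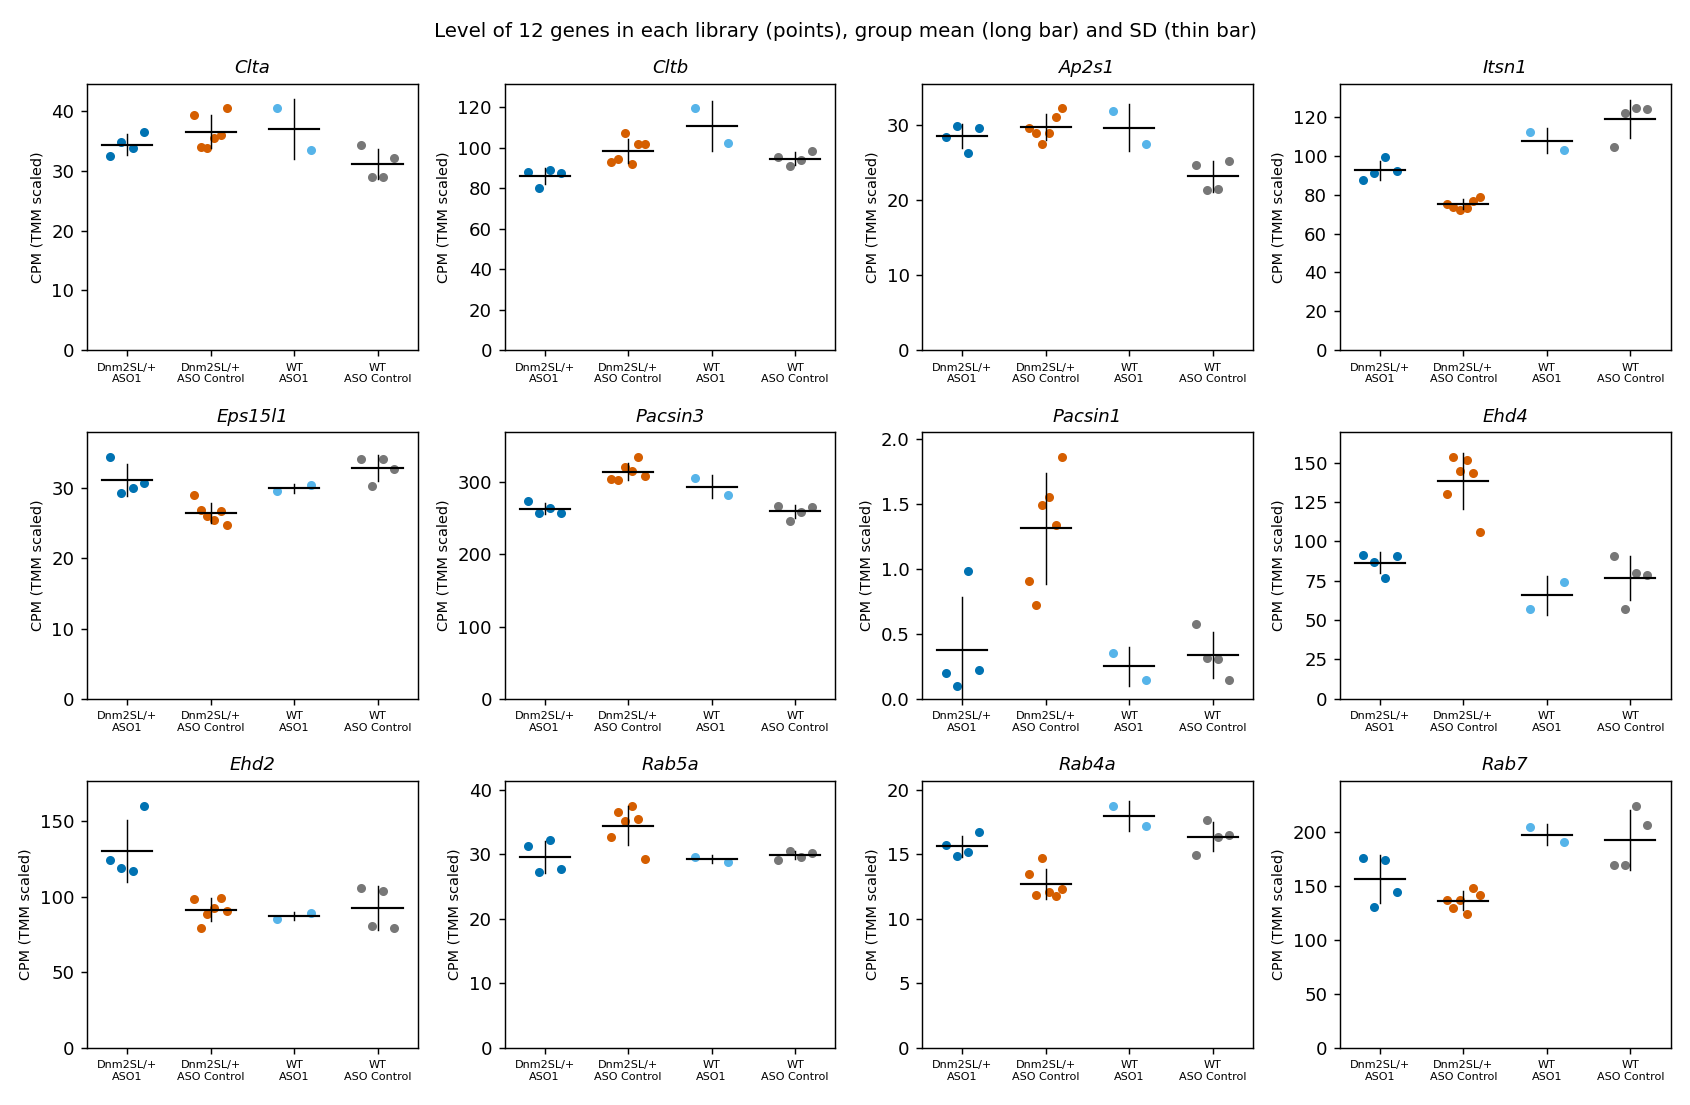
Level in TMM-scaled CPM of 12 genes in each library (points), with the mean of each group (long bar) and its SD (thin bar), and groups in the order Dnm2SL/+ ASO1, Dnm2SL/+ ASO Control, WT ASO1 and WT ASO Control. Ehd4 was at 106 to 154 CPM in Dnm2SL/+ ASO Control, above every other library, and Itsn1 at 72.5 to 79.2 CPM lay below every other library.

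Of the 6 endosomal RAB genes, 2 were higher and 3 lower in Dnm2SL/+, while 1 was higher and 1 lower with ASO1. Of all genes tested, 15.7% were higher and 16.4% lower with genotype, and 6.96% higher and 8.06% lower with ASO1. Rab7 had 124, 137 and 148 CPM in Dnm2SL/+ ASO Control, against 169, 169, 224 and 206.5 CPM in WT ASO Control libraries, without overlap (log2FC = -0.50, SE 0.10, edgeR adjusted P value = 0.0010). In Dnm2SL/+ ASO1 libraries Rab7 had 175, 131, 174 and 144 CPM, and the difference with ASO1 missed the threshold (log2FC = 0.20, edgeR adjusted P value = 0.20). Exons of Gm5577 lie across Rab7 on the other strand.

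Rab4a, the fast recycling GTPase, had 11.7, 12.2 and 14.7 CPM in Dnm2SL/+ ASO Control, against 14.9, 17.7, 16.4 and 16.5 CPM in WT ASO Control libraries (log2FC = -0.37, edgeR adjusted P value = 0.0014). With ASO1 Rab4a was at 15.7, 14.9, 15.2 and 16.7 CPM, above every Dnm2SL/+ ASO Control library (log2FC = 0.30, edgeR adjusted P value = 0.013), and both calls held with each library left out. The RAB5 paralogs, which mark early endosomes, did not move together. Rab5b was lower in Dnm2SL/+ without overlap, at 52.0 to 61.8 CPM in Dnm2SL/+ ASO Control and 62.9 to 71.3 CPM in WT ASO Control libraries (log2FC = -0.23, edgeR adjusted P value = 0.0060), a difference of 0.00 under library size alone. Rab5c had a log2FC of 0.10 and did not pass.

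Rab5a had 29.2, 35.3 and 37.5 CPM in Dnm2SL/+ ASO Control, against 29.1, 30.4, 29.6 and 30.2 CPM in WT ASO Control libraries (log2FC = 0.21, edgeR adjusted P value = 0.035). In Dnm2SL/+ ASO1 libraries it had 31.2, 27.2, 32.1 and 27.7 CPM (log2FC = -0.22, edgeR adjusted P value = 0.048). Both pairs of groups overlapped, through Dnm2SL/+ ASO Control replicate 6 at 29.2 CPM. The genotype call on Rab5a was lost without any WT ASO Control library or Dnm2SL/+ ASO Control replicate 2 or 4 (adjusted p up to 0.078), and the ASO1 call was lost in 13 of 16 leave-outs, holding only without replicate 1 or 6 of Dnm2SL/+ ASO Control or replicate 3 of Dnm2SL/+ ASO1 (adjusted p up to 0.141). Rab11a, the slow recycling GTPase, had a log2FC of 0.16 with overlap (59.0 to 67.7 CPM in Dnm2SL/+ ASO Control, against 55.4 to 59.4 CPM in WT ASO Control libraries, edgeR adjusted P value = 0.032), and lost its call without WT ASO Control replicate 1, 2 or 3 or Dnm2SL/+ ASO Control replicate 2, 3 or 4 (adjusted p up to 0.091). Exons of Gm47308 lie across Rab11a on the same strand, and those of Pp2d1 across Rab5a on the other.

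Ratios of paralogs within a library do not depend on the scaling, and these pairs were chosen after their values were seen, so the ratios are given as a description. The level of Ehd4 per kb over that of Ehd2 was 0.721 to 0.940 in Dnm2SL/+ ASO1, 1.499 to 2.48 in Dnm2SL/+ ASO Control, 0.857 and 1.07 in WT ASO1, and 0.904 to 1.26 in WT ASO Control libraries. Every Dnm2SL/+ ASO Control library thus lay above all others. The level of Itsn1 per kb over that of Itsn2 was 2.16 to 2.30 in Dnm2SL/+ ASO1, 1.52 to 1.79 in Dnm2SL/+ ASO Control, 2.61 and 2.87 in WT ASO1, and 2.25 to 2.71 in WT ASO Control libraries, so that here every Dnm2SL/+ ASO Control library lay below all others. Cltb over Clta, at 0.852 to 1.00 in Dnm2SL/+ ASO1, 0.871 to 1.17 in Dnm2SL/+ ASO Control and 1.03 to 1.19 in WT ASO Control libraries, overlapped between Dnm2SL/+ ASO1 and Dnm2SL/+ ASO Control and not between Dnm2SL/+ ASO1 and WT ASO Control.

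**Figure D4:**
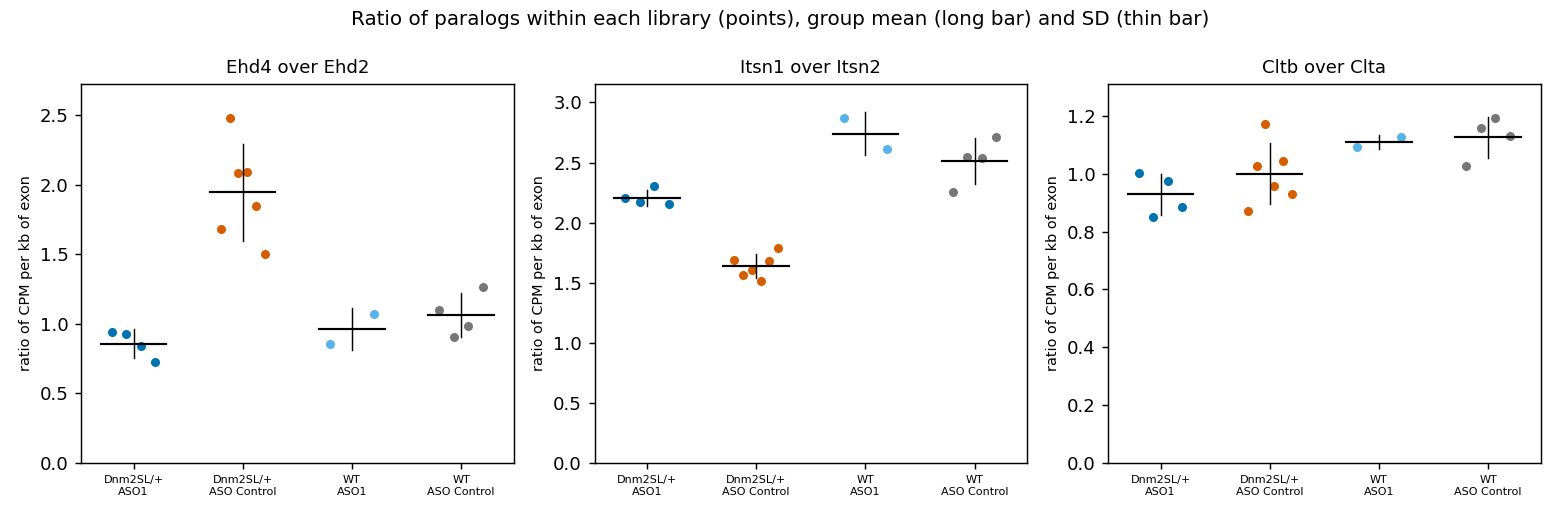
Ratio of the levels of paralogs per kb of exon in each library (points), with the mean of each group (long bar) and its SD (thin bar). For Ehd4 over Ehd2 the Dnm2SL/+ ASO Control libraries sit at 1.499 to 2.48, above the other groups, and for Itsn1 over Itsn2 they sit at 1.52 to 1.79, below the other groups.

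Treated Dnm2SL/+ muscle was also compared with WT, as Dnm2SL/+ ASO1 against WT ASO Control. Ehd2 and Ehd1 had not passed between the genotypes under ASO Control (log2FC = -0.02 and 0.03). Ehd2, Ap2s1 and Ehd1 were higher and Itsn1 and Eps15 were lower, that is 3 and 2 of the 44, beside 1.66% higher and 2.86% lower of all genes tested. Ehd2 had a log2FC of 0.49 (edgeR adjusted P value = 0.026), Ap2s1 of 0.30 (adjusted P value = 0.036), Ehd1 of 0.29 (adjusted P value = 0.041), Itsn1 of -0.36 (adjusted P value = 0.0078) and Eps15 of -0.29 (adjusted P value = 0.026). None of these 5 overlapped between the groups, whereas Ehd4 (log2FC = 0.17) and Pacsin3 (log2FC = 0.02) did not pass. The Itsn1 call alone held with each library left out. That of Ehd2 was lost without WT ASO Control replicate 2 or 4 or Dnm2SL/+ ASO1 replicate 4 (adjusted p up to 0.083), that of Ap2s1 without WT ASO Control replicate 2 or 3 or Dnm2SL/+ ASO1 replicate 1, 2 or 4 (up to 0.102), that of Eps15 without WT ASO Control replicate 3 or 4 or Dnm2SL/+ ASO1 replicate 2 or 4 (up to 0.085), and that of Ehd1 without any of 8 libraries, WT ASO Control replicates 1, 2 and 4, both WT ASO1 libraries and Dnm2SL/+ ASO1 replicates 2, 3 and 4 (up to 0.112). With only these groups in the fit, none of the 5 passed.

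In WT muscle, no gene passed with ASO1 in edgeR, neither among the 44 nor among all genes (0% higher and 0% lower), although 8 of the 44 and 1605 of all genes had an unadjusted p under 0.05. This comparison had 2 WT ASO1 libraries, and the targeted gene Dnm2, with a log2FC of -1.14, did not pass either. The lack of calls is therefore no sign that ASO1 left these genes unchanged in WT. DESeq2 called 75 genes higher and 26 lower there, and of the 44 it called Ap2s1 higher (log2FC = 0.37, adjusted p = 0.037) and Itsn2 lower (log2FC = -0.26, adjusted p = 0.036). Ap2s1 had 31.9 and 27.4 CPM in WT ASO1 libraries, above all 4 WT ASO Control libraries. With so few libraries lack of overlap was common, as 11 of the 44 showed it here while none passed in edgeR.

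Between Dnm2SL/+ ASO1 and WT ASO1, Ehd2 was higher (log2FC = 0.58, edgeR adjusted P value = 0.038) and Cltb was lower (log2FC = -0.37, edgeR adjusted P value = 0.023), beside 1.02% higher and 2.49% lower of all genes tested. Ehd2 was at 117 to 160.5 CPM in Dnm2SL/+ ASO1, against 85.1 and 88.9 CPM in WT ASO1 libraries, and Cltb was at 80.2 to 89.0 CPM in Dnm2SL/+ ASO1, against 120 and 102 CPM in WT ASO1 libraries, without overlap. In this comparison 15 of the 44 lacked overlap and only 2 passed. Without WT ASO1 replicate 1 neither passed (adjusted p = 0.43 for Ehd2 and 0.46 for Cltb), and neither did without Dnm2SL/+ ASO1 replicate 2 (0.058 and 0.059) or 4 (0.077 and 0.058), or, for Ehd2, without WT ASO1 replicate 2 (0.089).

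The effect of ASO1 differed between the genotypes for 3 of the 44 genes, 1 with a positive and 2 with a negative interaction, beside 0.882% and 1.94% of all genes tested. Itsn1 had a log2FC with ASO1 of 0.30 in Dnm2SL/+ and -0.14 in WT (interaction 0.44, SE 0.10, edgeR adjusted P value = 0.025), with 113 and 103 CPM in WT ASO1 libraries. Pacsin3 had -0.26 in Dnm2SL/+ and 0.18 in WT (interaction -0.43, SE 0.08, edgeR adjusted P value = 0.010), with 305 and 282 CPM in WT ASO1 libraries, above all 4 WT ASO Control libraries. Between these WT groups 11 of the 44 genes lacked overlap. Cltb had -0.19 in Dnm2SL/+ and 0.23 in WT (interaction -0.42, SE 0.10, edgeR adjusted P value = 0.033). All 3 rest on the 2 WT ASO1 libraries. Without WT ASO1 replicate 1 none passed (adjusted p = 0.079 for Itsn1, 0.093 for Pacsin3 and 0.24 for Cltb). Itsn1 was also lost without WT ASO1 replicate 2 (0.097) or WT ASO Control replicate 3 (0.056) or 4 (0.050), and Cltb without WT ASO Control replicate 2 (0.058) or 3 (0.066), Dnm2SL/+ ASO Control replicate 5 (0.051) or Dnm2SL/+ ASO1 replicate 1 (0.050) or 2 (0.058).

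Genes that work around these 44 were counted from 8 further lists of 123 genes, of which 116 were tested. These lists too were chosen with earlier results of these data known. Of these 116, 29 were higher and 24 lower in Dnm2SL/+ under ASO Control (25% and 20.7%, beside 15.7% and 16.4% of all genes), and 3 were higher and 18 lower with ASO1 (2.59% and 15.5%, beside 6.96% and 8.06%). In the list of actin branching at pits, 9 of 13 genes were higher and none lower in Dnm2SL/+ (median log2FC = 0.31, and 0.53 with 12 higher under library size alone), and 5 were lower and none higher with ASO1. Cttn, the cortical actin and dynamin binding protein cortactin, was at 37.4 to 45.5 CPM in Dnm2SL/+ ASO Control and at 24.6 to 29.2 CPM in WT ASO Control libraries (log2FC = 0.69, edgeR adjusted P value = 7.8e-06), and at 29.8 to 32.7 CPM in Dnm2SL/+ ASO1 libraries (log2FC = -0.43 with ASO1). Dbnl, a drebrin-like actin adaptor, and Arpc3, a subunit of the ARP2/3 complex, had log2FC of 0.65 and 0.41 in Dnm2SL/+ and of -0.43 and -0.20 with ASO1. Actin regulators are expressed by many cell types, and the summed level of 10 fibroblast markers, 5 of them called higher, was 2279 to 3178 CPM in Dnm2SL/+ ASO Control and 957 to 2661 CPM in WT ASO Control libraries. Their part in the result was not tested.

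Of 17 recycling genes tested, 6 were higher and 4 lower in Dnm2SL/+, and 4 were lower with ASO1, beside 15.7%, 16.4% and 8.06% of all genes. Under library size alone 10 were higher and 1 lower in Dnm2SL/+, and 9 were lower with ASO1. Rab11fip5, a RAB11 effector, was at 94.1 to 121 CPM in Dnm2SL/+ ASO Control, against 39.3 to 54.7 CPM in WT ASO Control libraries (log2FC = 1.13, edgeR adjusted P value = 2.2e-06), and at 53.3 to 71.5 CPM in Dnm2SL/+ ASO1 libraries (log2FC = -0.70 with ASO1). Micall1, a partner of EHD proteins on recycling tubules, had 51.2 to 79.5 CPM in Dnm2SL/+ ASO Control, against 33.5 to 36.7 CPM in WT ASO Control libraries (log2FC = 0.90), and the GTPase gene Rab31 had 18.5 to 26.1 CPM in Dnm2SL/+ ASO Control, against 7.78 to 14.2 CPM in WT ASO Control libraries (log2FC = 1.12). None of these 3 overlapped between the genotypes.

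Of 15 phosphoinositide enzymes, 6 were lower and 1 higher in Dnm2SL/+ (median log2FC = -0.20), beside 16.4% lower and 15.7% higher of all genes. This depended on the scaling, as under library size alone 3 were higher and none lower (median log2FC = 0.02). Pip5k1c, which makes the phosphoinositide that recruits AP-2, was at 28.9 to 31.8 CPM in Dnm2SL/+ ASO Control and 37.0 to 40.8 CPM in WT ASO Control libraries (log2FC = -0.34, edgeR adjusted P value = 9.6e-05). Inpp4b, a 4-phosphatase, was the higher one, at 29.0 to 45.9 CPM in Dnm2SL/+ ASO Control and 12.7 to 16.4 CPM in WT ASO Control libraries (log2FC = 1.42, edgeR adjusted P value = 2.5e-05). Inpp5b had a log2FC of -0.26.

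Early endosome effectors had 2 higher and 5 lower of 18 in Dnm2SL/+, among them the RAB5 effector Rabep1 (log2FC = -0.47) and the endosomal SMAD anchor Zfyve9 (log2FC = -0.55), which were lower, and the ESCRT-0 subunit Stam2 (log2FC = 0.57), which was higher. Under library size alone this list turned to 10 higher and 2 lower. Retromer and sorting nexin genes had 3 higher and 3 lower of 12 (8 and 0 under library size alone), with Snx27 (log2FC = -0.38) and Vps35 (log2FC = -0.27) lower and Vps29 (log2FC = 0.25) higher. Coats of the AP-1, AP-3 and GGA kind, which act at the Golgi and endosomes, had 4 higher and 1 lower of 15 (10 and 0 under library size alone), led by Gga2 (log2FC = 1.07), Ap1s1 (log2FC = 0.72) and Ap1s2 (log2FC = 0.45). Other coat adaptors and uncoating genes had 3 higher and 2 lower of 17 (5 and 1 under library size alone), with Hip1r (log2FC = 0.38) higher and Sh3kbp1 (log2FC = -0.92) lower. Of 9 receptors and cargo genes, 3 were lower, the glucose transporter gene Slc2a4 (log2FC = -0.41), the insulin receptor gene Insr (log2FC = -0.39) and the WNT co-receptor gene Lrp6 (log2FC = -0.33), and 1 was higher, against 1 lower and 4 higher under library size alone. Of all genes, 15.7% were higher and 16.4% lower in this comparison. All values in this paragraph are edgeR log2FC of Dnm2SL/+ ASO Control over WT ASO Control with adjusted P values of 1e-06 to 0.0046.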

How the data were processed

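Per the labels, RNA of the tibialis anterior was extracted with TRI Reagent, and libraries came from the TruSeq Stranded mRNA kit. The authors listed cutadapt 1.10, Bowtie2 2.2.8, STAR 2.5.3a, HTSeq 0.6.1p1 and GRCm38 in their processing notes, and deposited raw counts per Ensembl gene for 16 libraries. Which annotation release was used, and whether reads were counted by strand, is not given in the sources used here. Symbols and exon lengths came from GENCODE M21, and promoter sequences from RefSeq (GRCm38.p6), where 40 of the 44 genes had an entry.

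The 44 genes and the other lists were chosen with earlier results of these data known. Genes passing filterByExpr (15649 of 30037) had TMM scaling factors, and the quasi-likelihood test came from edgeR 4.0.16 (R 4.3.3). Each group had its own mean in a model of all 16 libraries, which left 12 residual degrees of freedom. P-values were adjusted by Benjamini-Hochberg over all genes tested and called under 0.05. For an SE, the absolute log2FC was divided by the root of the F statistic. Levels are TMM-scaled CPM, and pooled SDs used log2(CPM + 0.1). Dnm2 was also tested by two-sided exact permutation of log2 CPM (SciPy 1.17.1). No 2 libraries were duplicates (chi-squared per degree of freedom of at least 10.9). Every gene of the 44 is named under its role, with values for the 5 largest rises and falls called in the 2 main comparisons, those called in the other 4, the clathrin genes, and the most abundant gene of each role, and up to 3 called genes of each further list. Values of other genes were added after they were seen. Tests were checked on simulated counts. Alternatives were RLE scaling, library size alone, no filter, more than 1 CPM in 4 libraries, removal of the 20 most counted genes, DESeq2 1.42.0, limma voom 3.58.1, a model of only the groups in a comparison, a block for the replicate number, log2FC above 1, and each library left out.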

Additional observations from a re-analysis of the deposited data

Results flagged for a closer look

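Among the 21 genes named with their values, the highest or lowest library was looked at in 63 groups of 4 or 6, where chance alone flags about 1 group in 20, and 4 libraries stood far from the others of their group. Itsn1 was at 105 CPM in WT ASO Control replicate 1, beside 122 to 125 CPM in the other 3. Pacsin1 was at 0.981 CPM in Dnm2SL/+ ASO1 replicate 3, beside 0.099 to 0.222 CPM in the other 3. Synj2 was at 56.2 CPM in WT ASO Control replicate 2, beside 116 to 121 CPM in the other 3. Ehd2 was at 160 CPM in Dnm2SL/+ ASO1 replicate 4, beside 117 to 125 CPM in the other 3.

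The effect of ASO1 differed between the genotypes, by the interaction term of edgeR, for Itsn1 (0.44, adjusted P value = 0.025), Pacsin3 (-0.43, adjusted P value = 0.010) and Cltb (-0.42, adjusted P value = 0.033), in units of log2FC. Each of these rests on 2 WT ASO1 libraries and none passed without replicate 1 of that group (adjusted p = 0.079, 0.093 and 0.24).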

How the results depend on the processing

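RLE scaling, limma voom and removal of the 20 most counted genes kept every count of called genes within 1.5 times. Library size alone gave 22 higher and 2 lower for genotype under ASO Control, 2 and 12 for ASO1 in Dnm2SL/+, 5 and 1 for Dnm2SL/+ ASO1 against WT ASO Control, 2 and 0 for genotype under ASO1, and 4 lower for the interaction. It turned Ap2a2 (0.21), Itsn2 (0.18), Epn2 (0.16), Snx9 (0.20), Synj1 (0.22) and Rab5b (8.6e-05) to a positive log2FC in the genotype comparison, while the median of all genes moved by 0.23. No filter gave 3 lower with ASO1, 1 higher and 1 lower against WT ASO Control, and 0 higher and 1 lower for the interaction. Only the groups compared gave 0 and 0 against WT ASO Control and for genotype under ASO1 (the interaction needs all 4 groups and has no such value). DESeq2 gave 1 and 1 for ASO1 in WT, 2 higher for genotype under ASO1, and 3 and 3 for the interaction, and the filter of more than 1 CPM in 4 libraries gave 2 higher for genotype under ASO1. With a log2FC above 1 required, 1 higher and 0 lower were left for genotype, 0 and 1 for ASO1, and 0 in the other comparisons. Deviations from the group mean correlated at -0.157 to 0.247 between same-numbered libraries of different groups, and at -0.273 to 0.273 between differently numbered ones. The numbers thus gave no sign of pairing, though deviations of the 2 WT ASO1 libraries only mirror each other. A shared litter or day was not tested. With the replicate block 5 were higher for genotype, 3 higher for ASO1, 0 and 0 for genotype under ASO1, and 0 and 1 for the interaction. Leaving out each library gave 4 to 9 higher and 6 to 9 lower for genotype, 4 to 5 and 2 to 6 for ASO1, 0 to 3 and 1 to 3 against WT ASO Control, 0 to 2 and 0 to 1 for genotype under ASO1, 0 to 2 and 0 to 2 for the interaction, and 0 for ASO1 in WT. All 16 leave-outs kept 10 of 17 genotype calls, 5 of 10 ASO1 calls and 1 of 5 against WT ASO Control. The lowest count of 4 higher for genotype came without WT ASO Control replicate 2 or 3, and that of 2 lower for ASO1 without Dnm2SL/+ ASO1 replicate 2 or 4. With both WT ASO Control replicate 1 and Dnm2SL/+ ASO Control replicate 6 left out, chosen after the values were seen, 8 were higher and 8 lower for genotype, and 5 and 6 with ASO1. The cause of these shifts was not tested. Dnm2 was called lower with ASO1 under 26 alternatives (-0.98 to -0.79), a range that does not reach the log2FC of 1 required in a further one. Depth limits Pacsin1, Sh3gl2, Sh3gl3 and Amph, and n = 2 limits all comparisons with WT ASO1.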
